A study of Mus musculus with 8 samples.

Results

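The mitochondrial genome of the mouse carries 37 genes, and all 37 were found among the 52550 genes of the deposited tables by the prefix mt- of their symbols. They comprised 13 protein-coding genes, 2 rRNA genes and 22 tRNA genes. RNA had been sequenced from 2 stages of B cell progenitors, pre-pro-B and the later pro-B, each sorted by surface markers from C57BL/6J bone marrow. The mice were either wild type (WT) or lacked lactoferrin in the whole body (Lf-/-), and no group was treated. Of the 8 samples in the labels, 7 were used. They were 4 of pre-pro-B cells (2 WT, 2 Lf-/-) and 3 of pro-B cells (1 WT, 2 Lf-/-), and WT pro-B replicate 2 was not analysed here. The controls were age-matched littermates, but the ages themselves are not given in the sources used here. The methods name 3 mice per group, whereas the labels number 2 libraries in each group, and nothing says whether a library pooled animals. The p-values therefore measure only the spread between libraries, which may be technical. Values are FPKM, that is, fragments per 1 kb of transcript, scaled to the depth of the library.

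The 13 mitochondrial protein-coding genes encode core subunits of the respiratory chain and of ATP synthase, and the remaining subunits are encoded in the nucleus. For brevity the 13 genes are also called mRNAs below, even where genes share an mRNA. Complex I (NADH dehydrogenase) takes the mt-Nd proteins, complex III takes cytochrome b (mt-Cytb), complex IV (cytochrome c oxidase) takes mt-Co1, mt-Co2 and mt-Co3, and ATP synthase takes mt-Atp6 and mt-Atp8. The mRNAs are translated inside the organelle by ribosomes built on the 12S rRNA (mt-Rnr1) and the 16S rRNA (mt-Rnr2) with the mitochondrial tRNAs. Both strands of the circular genome are transcribed into long precursors, and in many places tRNAs lie between the mRNAs and are cut out to release them. Most genes are read from one strand. On the other strand, which is the minus strand of the reference, lie mt-Nd6 and 8 of the 22 tRNA genes.

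Several facts about the libraries touch every value given here. A list of 18 neutrophil genes, called granule genes here, took 27.4% to 55.4% of the summed FPKM of a library. It holds genes of granule proteins, such as Ltf, and other neutrophil genes, such as S100a8, S100a9 and Padi4. Early B lineage genes took 0.0316% to 0.460%, although the sort was for B cell progenitors. All 18 granule genes reached 1 FPKM in all 7 libraries. Of 23 early B lineage genes, 17 to 22 reached 1 FPKM. Erythroid genes took 1.91% to 15.2%, with the highest share in Lf-/- pre-pro-B replicate 2. In that library 12172 genes were above 0, while the other 6 had 19477 to 20250, and its depth could not be read from its values. The other 6 libraries rested on an estimated 11000000 to 15400000 fragments. Ltf, which encodes lactoferrin, was at 2143 to 2731 FPKM in the 3 WT libraries and at 88.2 to 168 FPKM in the 4 Lf-/- libraries. In bulk RNA, fewer cells of a type and less RNA per cell cannot be told apart. Among the mitochondrial genes, both pre-pro-B libraries numbered 2, one of each genotype, stood apart from the other 5 in mt-Atp6 and in the ratio of the rRNAs.

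The genes lie close together, and 9 pairs of neighbours share bases, from 1 to 43. The longest overlap joins mt-Atp8 (chrM:7766-7969) and mt-Atp6 (chrM:7927-8607), which lie on the same strand and are known to be made from one mRNA. It is shown because mt-Atp6 was the protein-coding gene whose listed level varied most, while that of mt-Atp8 varied far less. The shared 43 bases are in capitals, in GRCm38 and from the GENCODE M21 transcripts, and the capitals of mt-Atp8 end in its stop codon:
mt-Atp8, last 100 bases, chrM:7870-7969, plus strand: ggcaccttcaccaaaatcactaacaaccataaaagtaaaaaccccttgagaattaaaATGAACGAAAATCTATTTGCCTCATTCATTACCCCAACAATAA
mt-Atp6, first 100 bases, chrM:7927-8026, plus strand: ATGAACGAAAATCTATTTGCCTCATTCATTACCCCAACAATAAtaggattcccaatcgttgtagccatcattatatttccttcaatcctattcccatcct

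A second feature of sequence bears on the values of most mRNAs. On chromosome 1, 7 unprocessed pseudogenes lie side by side (chr1:24611535-24616197, GRCm38) and match 7 mitochondrial genes at 99.71% identity or more. Gm10925 matched 678 of the 681 bases of mt-Atp6 without a difference, Gm28437 matched 783 of the 784 bases of mt-Co3, and Gm28661 matched 681 of the 684 bases of mt-Co2. Gm29216 covered 483 of the 1545 bases of mt-Co1. The other 3, named here after their values were seen, were Gm10222 (mt-Nd4l), Gm28438 (mt-Nd3) and Gm28439 (876 of the 1378 bases of mt-Nd4). Only 2 differences were found in the aligned parts of all 7 copies. They are T3C in mt-Nd3 and A1066T in mt-Co1, with the mitochondrial base first and positions counted from 1 at the first base of the mitochondrial gene. The stretches around them are shown, with the differing base in capitals, because they hold the only aligned bases that tell a mitochondrial fragment from a nuclear one:
mt-Nd3, chrM:9459-9491, plus strand: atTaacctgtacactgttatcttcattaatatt
Gm28438, chromosome 1, minus strand: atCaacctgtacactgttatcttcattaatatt
mt-Co1, chrM:6363-6423, plus strand: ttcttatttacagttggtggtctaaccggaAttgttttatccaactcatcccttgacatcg
Gm29216, chromosome 1, minus strand: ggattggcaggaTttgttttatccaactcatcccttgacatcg

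Bases of Gm29216 before its capital lie partly outside the aligned part, which begins at base 1063 of mt-Co1, and are not counted as differences.

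Despite being annotated as pseudogenes, these copies were listed at levels of the same order as those of the mitochondrial genes. Gm10925 ranged from 1999 to 3904 FPKM, Gm28437 from 1461 to 2924, Gm28661 from 825 to 1372 and Gm29216 from 852 to 1870 FPKM. Their sum, together with 4 less similar copies on chromosomes 2 and 13, was 57.8% to 73.1% as large as the sum of the 37 mitochondrial genes. The copies on chromosome 1 held 99.0% to 99.2% of it. For mt-Co3 the ratio of the mitochondrial gene to its copy was 0.988 to 0.994 in the 7 libraries, for mt-Co2 it was 0.983 to 0.989, and for mt-Nd4l 0.957 to 0.985. The 2 values of such a pair were thus almost equal in each library. The ratio was 1.13 to 1.26 for mt-Nd3, whose copy carries 1 difference. How fragments that match both places were counted is not given in the sources used here, so the level of a mitochondrial gene and that of its copy cannot be told apart over the matching parts of these 7 genes. The rRNA genes, mt-Nd1, mt-Nd6, mt-Cytb and mt-Atp8 had no such copy among annotated transcripts at 95% identity over 100 bases. mt-Nd2 and mt-Nd5 had only copies that were listed at 0 to 9.25 FPKM, and the tRNA genes are too short for this search. The bases between the annotated pseudogenes were not searched, for example those between Gm10925 (which ends at chr1:24614651) and Gm28661 (which starts at chr1:24614885). Further copies there, of mt-Atp8 or of tRNA genes, were therefore not looked for.

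**Figure D1:**
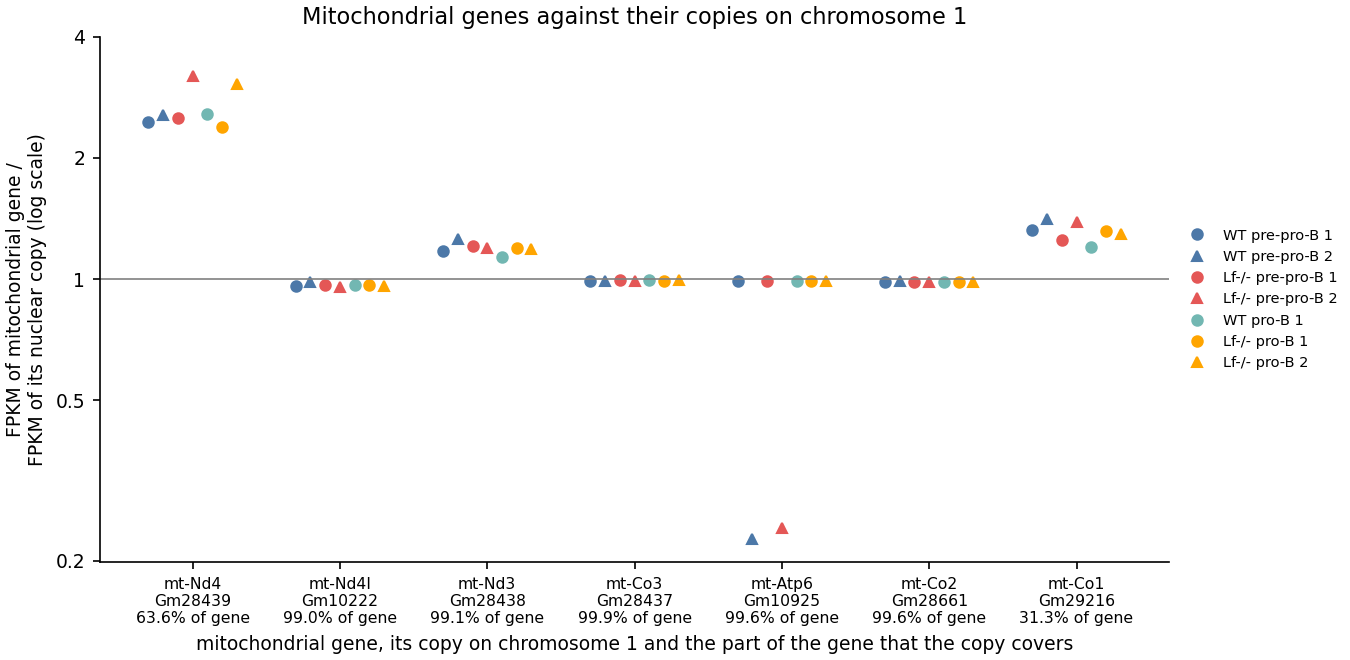
Ratio of the FPKM of a mitochondrial gene to that of its copy on chromosome 1 (log axis) for 7 pairs in 7 libraries, with points coloured by group and shaped by replicate. The mt-Co3 and mt-Co2 pairs sit between 0.983 and 0.994, whereas mt-Atp6 falls to 0.226 and 0.241 in the pre-pro-B libraries numbered 2.

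mt-Atp6, subunit a of ATP synthase (ENSMUSG00000064357), stood out in the pre-pro-B libraries. Pre-pro-B replicates 1 and 2 had 2798 and 452 FPKM (WT) and 3010.3 and 549.7 FPKM (Lf-/-), and the pro-B libraries had 2239 FPKM (WT) and 3856 and 2623 FPKM (Lf-/-). Within each pre-pro-B genotype the replicates were thus further apart than the genotypes. In both libraries numbered 2 its copy Gm10925 was listed far above it, at 1999 and 2283 FPKM, which gave ratios of 0.226 and 0.241, compared with 0.987 to 0.992 in the other 5. The sum of mt-Atp6 and Gm10925 was 0.650 and 0.707 times that of mt-Co3 and its copy in these 2 libraries and 1.28 to 1.63 times in the others, so the pair as a whole was also lower there relative to mt-Co3. mt-Atp8, which overlaps mt-Atp6, was also lower in both libraries numbered 2 than in their partners, but by less. Its pre-pro-B values were 1052 and 792 FPKM (WT) and 1275 and 966 FPKM (Lf-/-), and its pro-B values 1021 FPKM (WT) and 1577 and 991 FPKM (Lf-/-). The ratio of mt-Atp6 to mt-Atp8 was 0.571 and 0.569 in the 2 libraries and 2.19 to 2.66 in the other 5. The part of counting in this difference was not tested.

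The mRNAs of complex IV, which passes electrons to oxygen, were among the highest. mt-Co3 reached 2194 and 1877 FPKM in the WT pair and 2287 and 1991 FPKM in the Lf-/- pair of pre-pro-B libraries, with 1452 FPKM in the lone WT library and 2897 and 1611 FPKM in the Lf-/- pair of pro-B libraries. mt-Co1, the catalytic subunit of cytochrome c oxidase, had pre-pro-B values of 2223 and 1577 FPKM (WT) and 1666 and 2598 FPKM (Lf-/-) and pro-B values of 1023 FPKM (WT) and 2209 and 1618 FPKM (Lf-/-). mt-Co2, which takes up electrons from cytochrome c, was at 1132 and 816 FPKM (WT) and 1208 and 1353 FPKM (Lf-/-) at the pre-pro-B stage, and at 856 FPKM (WT) and 1307 and 892 FPKM (Lf-/-) at the pro-B stage. In mt-Co3 and mt-Co1 the pre-pro-B genotypes overlapped, whereas in mt-Co2 both Lf-/- pre-pro-B values lay above both WT values. The latter held for 15.5% of all genes tested. The WT pro-B library was below both Lf-/- pro-B libraries in all 3 genes, as it was in 75.3% of all genes tested.

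mt-Cytb, the only mitochondrial gene of complex III, reached 1053 and 711 FPKM in the WT pair and 920.1 and 1444 FPKM in the Lf-/- pair of pre-pro-B libraries, with 541 FPKM in the lone WT library and 1459 and 818 FPKM in the Lf-/- pair of pro-B libraries. Of complex I, mt-Nd1 was the highest, with pre-pro-B values of 814 and 667 FPKM (WT) and 881 and 1322 FPKM (Lf-/-) and pro-B values of 525 FPKM (WT) and 1309 and 732 FPKM (Lf-/-). Both Lf-/- pre-pro-B values of mt-Nd1 lay above both WT values, as in 15.5% of all genes tested, while those of mt-Cytb overlapped. mt-Nd4 had pre-pro-B values of 225 and 186 FPKM (WT) and 231 and 373 FPKM (Lf-/-) and pro-B values of 161 FPKM (WT) and 336 and 188 FPKM (Lf-/-). mt-Nd4l, which precedes it and shares 7 bases with it, was at 218 and 153 FPKM (WT) and 224 and 173 FPKM (Lf-/-) at the pre-pro-B stage, and at 165 FPKM (WT) and 327 and 142 FPKM (Lf-/-) at the pro-B stage. In mt-Nd4 both Lf-/- pre-pro-B values were above both WT values, and in mt-Nd4l they overlapped. The neighbours mt-Nd4 and mt-Nd4l had a ratio of 0.980 to 1.32 in 6 libraries and of 2.16 in Lf-/- pre-pro-B replicate 2.

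The remaining complex I genes were lower. mt-Nd2 reached 131 and 92.02 FPKM in the WT pair and 142 and 129 FPKM in the Lf-/- pair of pre-pro-B libraries, with 87.5 FPKM in the lone WT library and 198 and 131 FPKM in the Lf-/- pair of pro-B libraries. mt-Nd5 had pre-pro-B values of 73.9 and 65.02 FPKM (WT) and 70.6 and 139 FPKM (Lf-/-) and pro-B values of 46.6 FPKM (WT) and 109 and 54.8 FPKM (Lf-/-). mt-Nd6, the only mRNA gene of the minus strand, was at 73.9 and 53.4 FPKM (WT) and 83.8 and 110.3 FPKM (Lf-/-) at the pre-pro-B stage, and at 49.6 FPKM (WT) and 106 and 54.7 FPKM (Lf-/-) at the pro-B stage. Both Lf-/- pre-pro-B values of mt-Nd6 were above both WT values, as in 15.5% of all genes tested. mt-Nd5 and mt-Nd6 face each other and share 14 bases, and their ratio was 0.843 to 1.26. Whether the libraries kept strand is not given in the sources used here, so fragments of the opposite strand could have been counted for either gene. As listed, without its copy, mt-Nd3 was the lowest of the 13 in every library, with pre-pro-B values of 46.9 and 41.7 FPKM (WT) and 45.7 and 43.6 FPKM (Lf-/-) and pro-B values of 28.1 FPKM (WT) and 68.7 and 26.9 FPKM (Lf-/-).

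**Figure D2:**
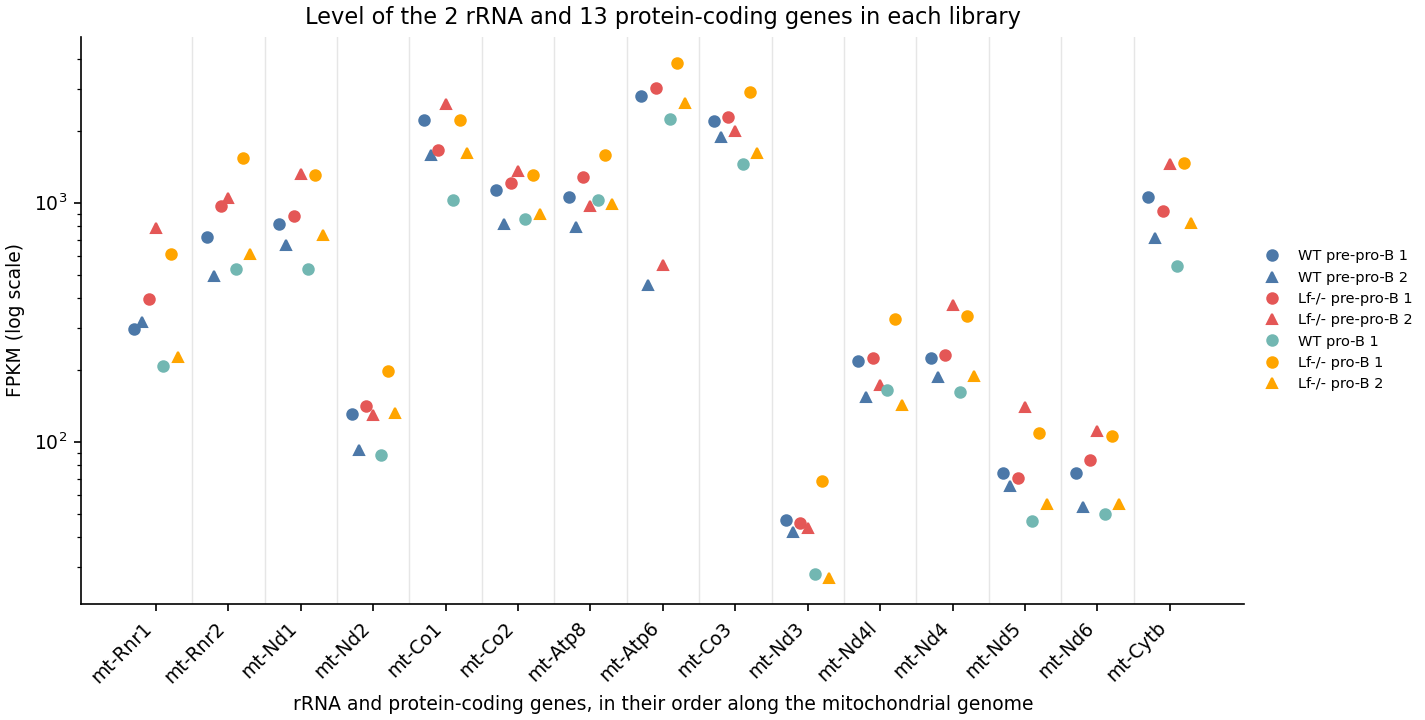
FPKM (log axis) of the 2 rRNA and 13 protein-coding genes, in their order along the genome, with 1 point per library, coloured by group and shaped by replicate. mt-Atp6 lies at 452 and 549.7 FPKM in the pre-pro-B libraries numbered 2 and between 2239 and 3856 FPKM in the other 5, while mt-Nd3 is the lowest mRNA throughout, with the nuclear copies left out.

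FPKM is a level per length, so the mRNAs can be set side by side, with a limit. Of the 13 mRNAs, 7 match copies on chromosome 1, whose values are left out of the order below. The places of the genes could change if the copies were counted to them. In WT pre-pro-B replicate 1, mt-Nd3 was listed at 46.9 and its copy at 40.0 FPKM, beside 73.9 FPKM for mt-Nd5 and for mt-Nd6. By their listed mean over the 7 libraries the mRNAs came in the order mt-Atp6, mt-Co3, mt-Co1, mt-Atp8, mt-Co2, mt-Cytb, mt-Nd1, mt-Nd4, mt-Nd4l, mt-Nd2, mt-Nd5, mt-Nd6 and mt-Nd3. The first 7 of these and the last 6 did not change sides in any library, since mt-Nd1 was never below rank 7 and mt-Nd4 never above rank 8. Within the upper part, mt-Co3 and mt-Co1 each held ranks 1 to 3, mt-Atp8 ranks 4 to 6, mt-Co2 ranks 3 to 7, and mt-Atp6 was either first (5 libraries) or seventh (both pre-pro-B libraries numbered 2). Of the neighbours in this order, mt-Co1 was above mt-Atp8, mt-Cytb above mt-Nd1, mt-Nd1 above mt-Nd4, mt-Nd4l above mt-Nd2 and mt-Nd6 above mt-Nd3 in all 7 libraries. The other neighbours changed places in at least 1 library, and none of these differences was tested. Across the 13 genes, Spearman's rho between libraries was 0.82 to 0.99 over the 21 pairs of libraries, and 0.92 to 0.99 without mt-Atp6. Genes of one genome share their libraries and their copies, so this is a description. Between its lowest and its highest library, an mRNA as listed differed 1.66-fold (mt-Co2) to 2.99-fold (mt-Nd5), with mt-Atp6 (8.52-fold) as the exception. Listed alone, mt-Atp6 ran from 452 to 3856 FPKM, whereas its sum with its copy Gm10925 ran from 2451 to 7760 FPKM.

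The genes mt-Co3, mt-Nd4 and mt-Cytb end 1 base into the stop codon, and the codon is known to be completed by the poly(A) tail. The ends of mt-Co3 and mt-Cytb are shown as those of 2 abundant mRNAs, with the single base in capitals:
mt-Co3, last 60 bases, chrM:9331-9390, plus strand: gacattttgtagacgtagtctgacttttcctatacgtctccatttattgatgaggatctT
mt-Cytb, last 60 bases, chrM:15229-15288, plus strand: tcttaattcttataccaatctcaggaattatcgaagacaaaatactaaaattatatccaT

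The rRNAs were lower than the leading mRNAs. mt-Rnr1 (ENSMUSG00000064337, chrM:70-1024) reached 296 and 316 FPKM in the WT pair and 394 and 785 FPKM in the Lf-/- pair of pre-pro-B libraries, with 206 FPKM in the lone WT library and 608 and 227 FPKM in the Lf-/- pair of pro-B libraries. mt-Rnr2 (ENSMUSG00000064339, chrM:1094-2675) had pre-pro-B values of 719 and 495 FPKM (WT) and 969 and 1049 FPKM (Lf-/-) and pro-B values of 527 FPKM (WT) and 1533 and 608 FPKM (Lf-/-). In both genes the Lf-/- pre-pro-B values lay above the WT pre-pro-B values, as in 15.5% of all genes tested. The Lf-/- pro-B values lay above the WT pro-B value, as in 75.3% of all genes tested. The ratio of mt-Rnr2 to mt-Rnr1 was 1.56 and 1.34 in WT and Lf-/- pre-pro-B replicate 2, and 2.43 to 2.68 in the other 5 libraries. Whether rRNA was removed or poly(A) RNA selected before sequencing is not given in the sources used here, and the level of an rRNA against an mRNA rests on that step.

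The tRNA genes were far lower. Together the 22 genes summed to 93.1 to 243 FPKM, and 12 of them reached 1 FPKM in all 7 libraries, while mt-Tl2 and mt-Ts1 stayed below 1 FPKM in every library and 8 genes were listed at 0 in at least 1 library. With lengths of 59 to 75 bases, a value rested on few fragments. Estimated from value, annotated length and depth in the 6 libraries whose depth was inferred from the values, the median was 3.07 and the highest 35.7 fragments per gene and library, compared with a median of 3535 for an mRNA. The 4 genes with the highest mean were mt-Tn (asparagine), mt-Tp (proline), mt-Tc (cysteine) and mt-Ta (alanine), and all 4 lie on the minus strand, as do 6 of the 10 highest. mt-Tk (lysine) and mt-Tr (arginine) had the largest log2 differences between the pre-pro-B genotypes. The 6 genes are shown 5' to 3' as transcribed, with the anticodon in capitals:
mt-Tn, chrM:5089-5159, minus strand: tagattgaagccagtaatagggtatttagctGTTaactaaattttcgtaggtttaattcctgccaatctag
mt-Tp, chrM:15356-15422, minus strand: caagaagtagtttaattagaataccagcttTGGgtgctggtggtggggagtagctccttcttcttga
mt-Tc, chrM:5192-5257, minus strand: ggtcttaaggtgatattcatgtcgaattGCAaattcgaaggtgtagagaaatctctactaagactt
mt-Ta, chrM:5018-5086, minus strand: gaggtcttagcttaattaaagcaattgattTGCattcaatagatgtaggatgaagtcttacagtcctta
mt-Tk, chrM:7700-7764, plus strand: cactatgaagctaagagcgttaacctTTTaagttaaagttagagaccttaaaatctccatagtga
mt-Tr, chrM:9808-9875, plus strand: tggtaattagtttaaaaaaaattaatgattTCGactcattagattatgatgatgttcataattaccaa

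mt-Tn was at 45.7 and 17.7 FPKM (WT) and 22.5 and 33.9 FPKM (Lf-/-) at the pre-pro-B stage, and at 12.97 FPKM (WT) and 25.0 and 23.9 FPKM (Lf-/-) at the pro-B stage. mt-Tp reached 31.5 and 23.4 FPKM in the WT pair and 19.6 and 31.7 FPKM in the Lf-/- pair of pre-pro-B libraries, with 17.5 FPKM in the lone WT library and 16.8 and 33.9 FPKM in the Lf-/- pair of pro-B libraries. In both genes the pre-pro-B genotypes overlapped. mt-Tc had pre-pro-B values of 46.3 and 10.5 FPKM (WT) and 27.3 and 24.1 FPKM (Lf-/-) and pro-B values of 13.2 FPKM (WT) and 27.2 and 19.1 FPKM (Lf-/-). mt-Ta was at 24.1 and 11.4 FPKM (WT) and 10.4 and 19.9 FPKM (Lf-/-) at the pre-pro-B stage, and at 6.68 FPKM (WT) and 16.6 and 14.5 FPKM (Lf-/-) at the pro-B stage. These overlapped as well, and in mt-Tc the WT pre-pro-B replicates enclosed both Lf-/- values. The median over the 8 minus-strand tRNA genes was 5.67 to 20.1 FPKM and that over the 14 plus-strand tRNA genes 0.786 to 2.45 FPKM, so the minus-strand median was the higher in each of the 7 libraries. The strand here is that of the annotated gene. Whether the libraries kept strand is not given, so fragments of the opposite strand could have been counted for these genes too.

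mt-Tk reached 2.87 and 1.77 FPKM in the WT pair and 2.80 and 25.1 FPKM in the Lf-/- pair of pre-pro-B libraries, with 1.25 FPKM in the lone WT library and 1.27 and 1.81 FPKM in the Lf-/- pair of pro-B libraries. The value of Lf-/- pre-pro-B replicate 2 was thus the only one above 2.87 FPKM. mt-Ti (isoleucine), named after its values were seen, had the same high library, at 21.4 FPKM compared with 2.16 to 6.42 FPKM in the other 6. mt-Tr had pre-pro-B values of 1.94 and 1.34 FPKM (WT) and, in the Lf-/- pair, of 0.382 FPKM and a listing at 0, and its pro-B values were 0.678 FPKM (WT) and 2.87 and 1.39 FPKM (Lf-/-). Both Lf-/- pre-pro-B values of mt-Tr were below both WT values, as in 17.7% of all genes tested. In replicate 2 of this Lf-/- pair, 6 of the 22 tRNA genes were listed at 0.

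**Figure D3:**
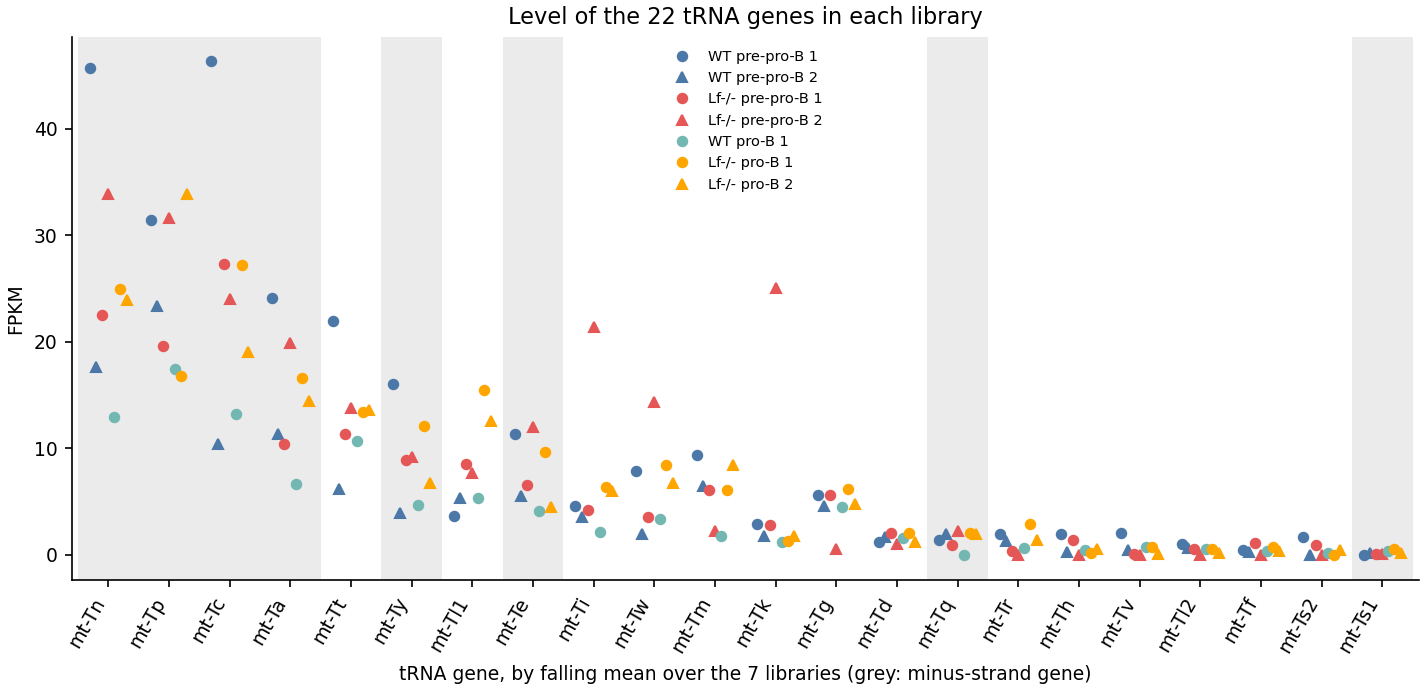
FPKM of the 22 tRNA genes by falling mean, with 1 point per library, coloured by group and shaped by replicate, and minus-strand genes on grey. The first 4 genes, all on the minus strand, reach 24.1 to 46.3 FPKM in their highest library, and mt-Ti and mt-Tk have a single high point, at 21.4 and 25.1 FPKM in Lf-/- pre-pro-B replicate 2.

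As a share of the summed FPKM, the 37 genes took 1.67% and 1.08% (WT) and 1.62% and 1.91% (Lf-/-) of the pre-pro-B libraries, and 1.08% (WT) and 2.46% and 1.49% (Lf-/-) of the pro-B libraries. The pre-pro-B means were 1.37% ± 0.411 (WT, SD, n = 2) and 1.77% ± 0.199 (Lf-/-, SD, n = 2), and the Lf-/- pro-B mean was 1.97% ± 0.688 (SD, n = 2). The difference between pre-pro-B genotypes was 0.391 percentage points (exact permutation test, two-sided, p = 0.667, where 2 libraries against 2 cannot give less than 0.33), and Lf-/- replicate 1 lay below WT replicate 1. With 1 library left out it ran from 0.101 (without WT replicate 2) to 0.681 points (without WT replicate 1), and it turned to -0.0402 points without the 2 pre-pro-B libraries numbered 2, an alternative chosen after seeing the data. In pro-B cells the Lf-/- mean was 0.891 points above the single WT library. With labels exchanged within each stage, the sum of both differences, 1.28 points, had p = 0.278 (exact permutation test, two-sided, 18 arrangements, smallest possible 0.0556). With 1 library left out that sum ran from 0.796 (without Lf-/- pro-B replicate 1) to 1.77 points (without Lf-/- pro-B replicate 2). Over the 4 shares tested (all genes and the 3 classes), the adjusted p was 0.278 for each. No share passed either test, and neither design can reach 0.05. Granule genes took 41.2% and 41.6% (WT) and 39.5% and 27.4% (Lf-/-) of the pre-pro-B sums, and 55.4% (WT) and 35.8% and 41.6% (Lf-/-) of the pro-B sums, and a larger share of theirs lowers every other share. With these 18 genes out of the denominator, the mitochondrial share was 2.83% and 1.86% (WT) and 2.69% and 2.63% (Lf-/-) in the pre-pro-B libraries, and 2.42% (WT) and 3.83% and 2.55% (Lf-/-) in the pro-B libraries. The genotypes kept the same order of means in both stages. With the nuclear copies added to the mitochondrial sum instead, the share ran from 1.77% to 3.88%. The means were then 2.29% (WT) and 2.84% (Lf-/-) in pre-pro-B libraries, and 3.14% in the Lf-/- pro-B libraries beside 1.77% in the WT library.

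Protein-coding genes made up most of the mitochondrial sum in every library. Protein-coding genes took 84.5% to 90.8%, rRNA genes 7.63% to 13.8% and tRNA genes 0.965% to 1.83% of it. The rRNA share was highest in Lf-/- pre-pro-B replicate 2 (13.8%) and Lf-/- pro-B replicate 1 (11.8%). In fragments, that is, with each value multiplied by the length of its gene, rRNA genes took 11.7% to 18.2% and tRNA genes 0.0726% to 0.136%. By complex, the 3 genes of complex IV took 35.5% to 50.8% of the mitochondrial sum, the 7 of complex I 11.8% to 17.3%, and mt-Cytb of complex III 5.99% to 10.9%. The 2 genes of ATP synthase took 29.0% to 36.1% in 5 libraries, and 14.8% and 11.4% in WT and Lf-/- pre-pro-B replicate 2, where mt-Atp6 was low. The copies on chromosome 1 were left out of all these shares.

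**Figure D4:**
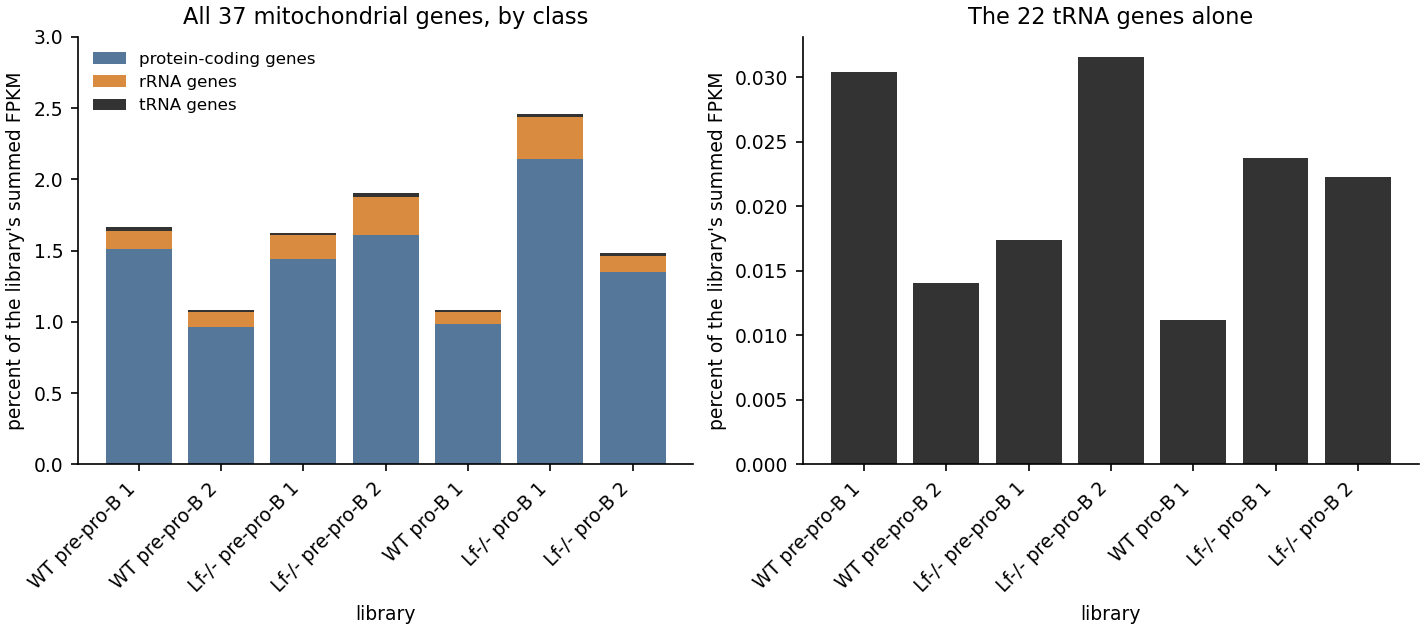
Percent of the summed FPKM of each library taken by mitochondrial protein-coding, rRNA and tRNA genes (stacked, left) and by the 22 tRNA genes alone (right, own scale), with 1 bar per library. The share, without the nuclear copies, runs from 1.08% to 2.46%, and the Lf-/- and WT pre-pro-B bars overlap.

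No mitochondrial gene passed the adjusted test between genotypes at either stage. The mRNA and rRNA genes had higher means in Lf-/- cells at both stages in the deposited values, none past the test, and in pro-B cells the median of the mRNAs turned with median-ratio scaling. For single genes, log2(FPKM + 1) was compared between groups with limma, over all genes that reached 1 FPKM in 2 or more libraries of the fit. Of the 37 members 32 passed that filter, namely the 13 protein-coding, the 2 rRNA and 17 tRNA genes, and mt-Tf, mt-Tv, mt-Ts1, mt-Ts2 and mt-Tl2 did not. In pre-pro-B cells 0 of the 32 had an adjusted p under 0.05, as had 0 of all 9720 genes tested (0%), and the lowest adjusted p of a member was 0.941. At an unadjusted p under 0.05, 1 of 32 members passed, compared with 284 of all genes (2.92%). It was mt-Tr, whose log2 difference, Lf-/- minus WT, was -1.16 (SE 0.46, adjusted p = 0.941 in limma). All 13 mRNAs had log2 differences above 0, from 0.01 (mt-Nd3) to 0.61 (mt-Nd6), with a median of 0.30 and SEs of 0.39 to 1.14. The rRNA genes had 0.86 (SE 0.50) for mt-Rnr1 and 0.76 (SE 0.44) for mt-Rnr2, and the tRNA genes ran from -1.16 to 1.61 with a median of 0.02. The median of all genes was 0.03, so the mRNA median lay 0.26 and the rRNA median 0.77 above it. These medians rested on single libraries. The mRNA median was 0.08 with 8 of 13 above 0 without WT replicate 2, 0.60 with 13 above 0 without WT replicate 1, and 0.47 with 9 above 0 without Lf-/- replicate 1, while the tRNA median was -0.51 without WT replicate 2, 0.60 without WT replicate 1, 0.23 without Lf-/- replicate 1 and -0.06 without Lf-/- replicate 2. When each library was instead divided by the median of its ratios to a common reference (median-ratio scaling), the median of all genes moved to -0.098 and those of the classes to 0.13, 0.64 and -0.13, and 9 of 13 mRNAs were above 0. Both Lf-/- values exceeded both WT values in 7 of 32 members (mt-Rnr1, mt-Rnr2, mt-Tl1, mt-Nd1, mt-Nd4, mt-Nd6 and mt-Co2) compared with 15.5% of all genes, and lay below both in 2 (mt-Tm and mt-Tr) compared with 17.7%. Early B lineage genes moved with the genotype in the same libraries, since 10 of 21 tested passed the unadjusted threshold as higher in Lf-/- cells (median log2 difference 1.27), and the medians were -0.41 for granule, 0.73 for erythroid and -0.07 for monocyte genes. Their part in the mitochondrial values was not tested. mt-Atp6, with a difference of 0.19 (SE 1.14), turned to -1.12 without WT replicate 2 and to -1.03 without Lf-/- replicate 1. Without Lf-/- replicate 1, when the single Lf-/- library left is assumed to vary like WT, 8 of 31 members passed the unadjusted and 6 the adjusted threshold, compared with 48.3% and 36.5% of all genes.

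In pro-B cells, where the spread had to be taken from the other 3 groups because WT has 1 library, 0 of 32 members had an adjusted p under 0.05 in limma (0% of 10793 genes), and the lowest was 0.822. At an unadjusted p under 0.05, 3 of 32 passed, compared with 467 genes (4.33%), and these were the tRNA genes mt-Tq (glutamine), mt-Tl1 (leucine) and mt-Tm (methionine), named after their values were seen. mt-Tq was listed at 0 in the WT library, while the Lf-/- libraries had 2.10 and 1.93 FPKM, a log2 difference of 1.59 (SE 0.51). For mt-Tl1 the WT value was 5.30 FPKM and the Lf-/- values were 15.5 and 12.6 FPKM, a log2 difference of 1.25 (SE 0.47). For mt-Tm they were 1.76 FPKM (WT) and 6.06 and 8.43 FPKM (Lf-/-), a log2 difference of 1.56 (SE 0.61). The highest of these values in fragments, that of mt-Tl1 in Lf-/- replicate 2, corresponded to an estimated 14.6 fragments. Without Lf-/- replicate 1, 0 members passed the unadjusted threshold, compared with 1.33% of all genes. The mRNAs had differences of 0.29 to 1.01 with a median of 0.61, the rRNA genes a median of 0.86 and the tRNA genes one of 0.83. In the same fit the median of all genes was 0.48, so these medians lay 0.12, 0.38 and 0.35 above it. Without Lf-/- replicate 1 the mRNA and rRNA medians were 0.22 and 0.17, below that of all genes (0.48), with 10 of 13 mRNAs above 0, and the tRNA median was 0.51. Without Lf-/- replicate 2 the medians of mRNA, rRNA and tRNA genes were 1.08, 1.55 and 1.06. Both Lf-/- values were above the WT value in 26 of 32 members, compared with 75.3% of all genes. With median-ratio scaling the median of all genes was 0.01 and those of mRNA, rRNA and tRNA genes became -0.030, 0.21 and 0.13, so the direction for the mRNAs turned with the scaling, while quantile normalization gave 0.31, 0.65 and 0.25. Early B lineage genes were again higher in Lf-/- cells (16 of 22 tested passed the unadjusted threshold, median 2.12) and granule, erythroid and monocyte genes had medians of -0.74, 0.38 and 0.45. Their part was not tested here either.

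**Figure D5:**
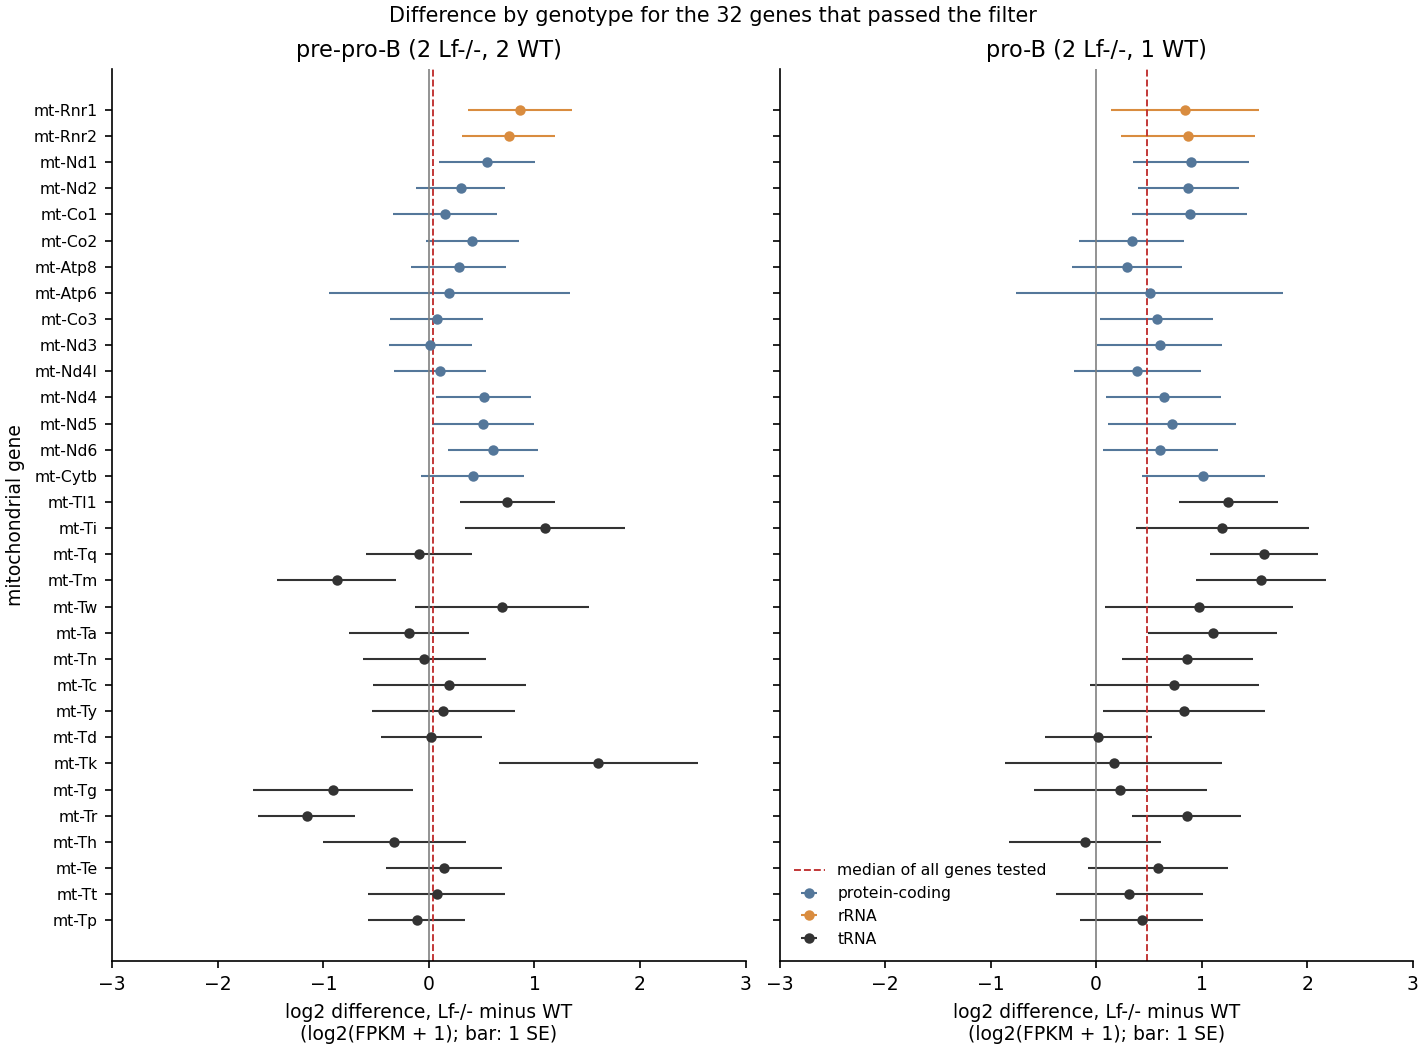
Log2 difference, Lf-/- minus WT, with its SE for the 32 members tested in pre-pro-B cells (left) and pro-B cells (right), with the median of all genes tested as a dashed line (0.03 and 0.48). All 13 mRNAs lie above 0 in both panels under the deposited scaling and, with 9 and 5 of 13 above 0 under median-ratio scaling, their direction depended on it.

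Between stages, 0 of 32 members had an adjusted p under 0.05 in limma in either genotype (0% of all genes in both). In Lf-/- cells 1 member passed the unadjusted threshold, compared with 5.73% of all genes, and it was mt-Tr, with a log2 difference of 1.37 (SE 0.42, pro-B minus pre-pro-B). The medians were -0.08 for mRNA, -0.32 for rRNA and 0.04 for tRNA genes, beside 0.15 for all genes. Without Lf-/- pre-pro-B replicate 1, 5 of 31 members passed both the unadjusted and the adjusted threshold, while 28.6% of all genes passed the latter. In WT cells 2 members passed, compared with 0.75% of all genes, namely mt-Tq and mt-Tm, with log2 differences of -1.41 (SE 0.51) and -1.67 (SE 0.61) in the single pro-B library. The WT medians were -0.34, -0.37 and -0.64 beside -0.28 for all genes, and with median-ratio scaling the mRNA median turned to 0.05. The genotype difference changed with the stage for 0 of 32 members after adjustment (0% of all genes). At the unadjusted threshold 3 passed, compared with 2.74% of all genes, and they were again mt-Tm, mt-Tr and mt-Tq, each with an adjusted p of 0.990 in limma. The medians of this second-order difference were 0.31, 0.05 and 0.55 for mRNA, rRNA and tRNA genes beside 0.45 for all genes, and -0.16, -0.42 and 0.10 beside 0.07 with median-ratio scaling. At the unadjusted threshold 5 of 31 members passed without Lf-/- pre-pro-B replicate 1 (27.6% of all genes) and 5 of 32 without replicate 2 (15.5% of all genes). These comparisons share libraries with those above and are not independent of them.

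The nuclear genes that serve the mitochondrial genome were described from lists. Of 16 genes for replication and transcription of mitochondrial DNA, 13 were tested in pre-pro-B cells, 5 of them had a log2 difference above 0 and 0 passed the unadjusted threshold (median -0.06). Of 17 genes for processing and stability of mitochondrial RNA, 13 were tested and 0 passed (median 0.0049). Among 11 tested mitochondrial aminoacyl-tRNA synthetases, which charge the tRNAs, 1 passed and had an adjusted p of 0.281 in limma. It was Lars2, the leucine enzyme, with pre-pro-B values of 0.284 and 0.199 FPKM (WT) and 45.1 and 67.7 FPKM (Lf-/-), and with pro-B values of 0.0818 FPKM (WT) and 0.185 and 7.91 FPKM (Lf-/-). Whether the fragments listed for Lars2 came from the mRNA of the enzyme was not tested. Of the tRNA genes for leucine, mt-Tl1 had pre-pro-B values of 3.65 and 5.32 FPKM (WT) and 8.52 and 7.67 FPKM (Lf-/-), and mt-Tl2 stayed below 1 FPKM. A link between Lars2 and these tRNA genes was not tested. Of 81 mitochondrial ribosomal proteins and 10 translation factors tested, 0 passed (medians 0.05 and 0.40). In pro-B cells the unadjusted threshold was passed by 1 of 14 genes for replication and transcription, 0 of 14 for processing and stability, 0 of 11 synthetases, 0 of 10 translation factors and 1 of 82 ribosomal proteins, and 0 genes of any of these lists passed after adjustment.

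Of the nuclear subunits of these complexes 0 passed the unadjusted threshold in pre-pro-B cells. The medians of all 4 complexes were below 0, while the medians of mitochondrial mRNA and rRNA genes were above 0, with the deposited scaling, median-ratio scaling and quantile normalization alike. For complex III the median was only -0.01 with quantile normalization, beside -0.08 for all genes. The mRNA median fell to 0.08 without WT replicate 2, and the nuclear medians are not given with a library left out. A difference above 0 was found in 9 of 36 complex I subunits (median -0.33), 4 of 9 of complex III (-0.02), 1 of 11 of complex IV (-0.38) and 2 of 15 of ATP synthase (-0.19). Among all genes tested it was above 0 in 5058 of 9720 (median 0.03). The lowest p in each list belonged to Ndufa5 (-0.90, SE 0.46), Uqcrc2 (-0.63, SE 0.40), Cox5b (-0.83, SE 0.41) and Atp5l (-0.58, SE 0.44), each with an adjusted p of 0.941 in limma. In pro-B cells the medians were 0.36, 0.30, 0.10 and 0.29, beside 0.48 for all genes, and with median-ratio scaling they turned to -0.26, -0.34, -0.54 and -0.35. Per length, the median mitochondrial subunit exceeded the median nuclear subunit of the same complex in every library, by 1.08 to 2.68 times in complex I, 5.22 to 12.9 times in complex III, 7.26 to 17.5 times in complex IV and 5.47 to 28.5 times in ATP synthase. The lowest of the ATP synthase ratios, 5.47 and 7.59, were those of WT and Lf-/- pre-pro-B replicate 2. The copies on chromosome 1 were left out of these ratios.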

How the data were processed

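Total RNA of sorted bone marrow cells had been extracted with a mirVana kit and sequenced on a NovaSeq 6000. The deposited files hold FPKM per gene and library, which the authors computed against GRCm38. The submitters' processing notes name TopHat, Cufflinks, HTSeq and DESeq, but no roles or order. Library selection, strand setting and the treatment of fragments that match several places are not given in the sources used here. No counts were given, so depth was inferred from the steps between low FPKM values, within a limited range of depths, which worked in 6 of 7 libraries. At the depth chosen, 26.8% to 41.0% of the low values used lay near a step, compared with 8.67% to 11.1% at the median over the depths tried. The depths and the fragment numbers are therefore estimates.

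Groups came from the labels. Coordinates, lengths and transcript sequences were those of GENCODE M21 (GRCm38), matched by identifier for 52403 of 52550 genes. Nuclear copies were sought among annotated transcripts with blastn 2.17.0 (identity of 95% or more over at least 100 aligned bases). Shares of summed FPKM were compared with exact permutation tests (scipy 1.17.1). Single genes were compared on log2(FPKM + 1), which understates changes of low genes, with limma 3.58.1 (mean-variance trend, Benjamini-Hochberg adjustment over all genes tested). The pre-pro-B fit held 4 libraries and the other fits all 7. The scripts were tested on simulated data. All 15 rRNA and protein-coding genes, the 4 tRNA genes with the highest mean and the 2 with the largest pre-pro-B differences were given in every library, and at most 3 nuclear genes per list, by lowest p, were named. The members and lists were chosen with earlier results of these data known. The alternatives were other scalings, pseudocounts, filters, fits, denominators and libraries left out.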

Additional observations from a re-analysis of the deposited data

Results flagged for a closer look

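For 3 tRNA genes the genotype difference itself differed between the stages at an unadjusted p under 0.05 in limma, with an adjusted p of 0.990 for each. At that unadjusted threshold 2.74% of all genes passed. The difference in pro-B cells exceeded that in pre-pro-B cells by 2.44 (SE 0.79) on the log2 scale for mt-Tm, by 2.01 (SE 0.66) for mt-Tr and by 1.68 (SE 0.66) for mt-Tq. In mt-Tm the pre-pro-B values were 9.40 and 6.43 FPKM (WT) and 6.10 and 2.24 FPKM (Lf-/-), and the pro-B values were 1.76 FPKM (WT) and 6.06 and 8.43 FPKM (Lf-/-). mt-Tr and mt-Tq were each listed at 0 in 1 library, namely Lf-/- pre-pro-B replicate 2 and WT pro-B replicate 1. In the libraries whose depth was inferred, they rested on at most an estimated 2.16 and 2.11 fragments, and mt-Tm on at most 8.96. All 3 rest on the single WT pro-B library.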

How the results depend on the processing

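Of the values recomputed under alternatives, 415 kept their direction and side of the threshold or moved by less than the limit set for them, 50 moved, 3 became significant and 3 reversed. Some of the 415 could not move, such as the pro-B mRNA median of 0.61 when a pre-pro-B library was left out. Reversals were counted only for single genes and share differences. The by-stage mRNA median, 0.31, was -0.16 with median-ratio scaling and still counted as kept. These counts are therefore no measure of robustness. The number of members at an unadjusted p under 0.05 in pre-pro-B cells was 0 with a pseudocount of 0.1, without a filter or with a filter in every library, and 0 to 8 with 1 library left out (0 to 6 after adjustment). In pro-B cells it was 1 with median-ratio scaling or quantile normalization and 0 to 4 with 1 library left out, and the mRNA median was -0.030 with median-ratio scaling. Between stages in Lf-/- cells it was 2 with median-ratio scaling, quantile normalization, no filter or the replicate block, and 0 to 5 with 1 library left out (0 to 5 adjusted). For the genotype difference by stage it was 1 with a filter in every library and 0 to 5 with 1 library left out (0 to 3 adjusted). The high values came without Lf-/- pre-pro-B replicate 1, and those of the pro-B and by-stage counts also without replicate 2. Between the pre-pro-B genotypes without replicate 1, mt-Rnr1, mt-Tk and mt-Tr had log2 differences of 1.36, 2.99 and -1.39. These are the 3 values counted above as significant, from a fit with 1 Lf-/- library left. The pre-pro-B difference of mt-Atp6 ran from -1.12 to 1.51 over the libraries left out, with -1.03 without Lf-/- replicate 1. The share difference in pre-pro-B cells reversed to -0.0402 points without both libraries numbered 2. In fragments the mean rRNA, mRNA and tRNA shares of the mitochondrial sum were 14.7%, 85.2% and 0.0989%. The cause was not tested in any of these. Where 1 library was left in a group, it was assumed to vary like the others, and without WT pro-B replicate 1 no pro-B, WT stage or by-stage value could be had. The replicate numbers were not shown to pair samples (correlations of deviations 0.04, 0.05 and -0.01). With the replicate block, 1 member passed the unadjusted threshold between the pre-pro-B genotypes (mt-Tk in place of mt-Tr), 2 between the pro-B genotypes (mt-Tl1 lost) and 2 by stage (mt-Tq lost), mt-Tk joined mt-Tr between stages in Lf-/- cells, and the share differences were 0.391 and 1.77 points. Depth limits the tRNA genes most, with a median of 3.07 estimated fragments.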
